A study of Mus musculus with 6 samples.

Results

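The genes described here are a fixed list of 43 interferon-response genes, chosen by symbol from the array's platform annotation, with the brightest probe set kept for each gene. Of these, 42 were measured among 19505 genes on the array, and Ifi44 was not analysed here. The samples were 6 arrays of cultured mouse fibrosarcoma cells on a C57BL/6 background, and every sample carried Rras2(Q72L), a mutant form of the RAS-related GTPase R-RAS2. The control group had been transduced with the lentiviral vector pLKO (replicates 1 to 3), and the knockdown group with a pLKO-type vector for an shRNA against Rras2, sh#89 (replicates 4 to 6, labelled shRras2). A single shRNA was used, and the labels do not say whether the cells were 1 clone. Nor do they name separate cultures behind the arrays, so each p-value reflects variation among the arrays as deposited, which could be purely technical. The comparison asks how lowering Rras2 changes gene expression in these tumor cells.

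Interferons are secreted cytokines, and cells release those of type I on sensing viral or misplaced nucleic acid. Type I interferons bind IFNAR1 and IFNAR2, and the kinases JAK1 and TYK2 then activate a complex that holds STAT2 and IRF9, which enters the nucleus and switches on genes that hold an interferon-stimulated response element. Type II interferon acts through IFNGR1 and IFNGR2 and on genes that hold the gamma-activated site. Many tumor cells are known to keep these genes partly active without infection.

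The response element is the sequence these genes are known to share, so its core was searched in the RefSeq promoter windows (GRCm38.p6, 250 bases before to 50 after an annotated start, both strands). The core searched was GAAA, any 2 bases, GAAA, which reads TTTC, any 2 bases, TTTC on the other strand, and overlapping matches were joined. Windows were found for 31 of the 42 genes, and 18 of them (58.1%) held the core, against 3.99% of 27025 genes with a window. The core of the gamma-activated site, TTC, any 3 bases, GAA, lay in 8 of the 31 (25.8%) against 9.55% of all. A match is a description of these letters and not of a bound site. The stretches below, with matches in capitals, are from genes that spread widely over the arrays (Isg15, Ifit3, Gbp3, Bst2) and from Rsad2 and Cxcl10, which hold the core too and moved less or differently. Ifit3 held another match, at -156 to -147, which is not shown.
Isg15, chr4:156200865-156200906, minus strand, 3 overlapping matches at -78 to -57: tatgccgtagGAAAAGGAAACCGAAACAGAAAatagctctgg
Ifit3, chr19:34583397-34583426, plus strand, match at -122 to -113: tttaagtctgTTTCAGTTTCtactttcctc
Gbp3, chr3:142559989-142560024, plus strand, 2 overlapping matches at -45 to -30: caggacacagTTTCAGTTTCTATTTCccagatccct
Bst2, chr8:71537577-71537612, minus strand, 2 overlapping matches at -130 to -115: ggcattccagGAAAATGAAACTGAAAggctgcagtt
Rsad2, chr12:26456553-26456582, minus strand, match at -120 to -111: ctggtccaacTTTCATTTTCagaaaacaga
Cxcl10, chr5:92349083-92349112, minus strand, match at -213 to -204: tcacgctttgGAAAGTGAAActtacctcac
Positions count from the annotated start, with negative numbers before it, and each stretch reads in the direction of the gene.

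The interferon-response genes moved together from array to array more than they differed between the groups. They were low on control replicate 3 and on knockdown replicate 5, intermediate on control replicates 1 and 2, and high on knockdown replicates 4 and 6. The median deviation of the 42 genes from their 6-array mean was -0.03, 0.06 and -0.70 on control replicates 1, 2 and 3, and 0.63, -0.47 and 0.53 on knockdown replicates 4, 5 and 6, all on the log2 scale. The same median over all 19505 genes stayed between -0.01 and 0.01 on every array. Knockdown replicate 5 was the lowest array of its group for 42 of 42 genes, against 35.9% of all genes, and control replicate 3 was the lowest of its group for 38 of 42, against 31.8%. The full pattern, with replicates 3 and 5 the lowest pair and replicates 4 and 6 the highest pair, was seen for 29 of 42 (69.0%) and for 1.69% of all genes. Replicates 3 and 5 were the lowest pair, whatever the order of the rest, for 37 of 42 (6.54% of all genes). Replicates 4 and 6 both lay above every control for 33 of 42 (17.3%), and replicate 5 lay below control replicates 1 and 2 for 39 of 42 (39.4%). The range over the 6 arrays was at least 1 on the log2 scale for 30 of 42 (2.37%) and at least 2 for 12 of 42 (0.41%). This pattern was named after the values were seen, so the shares are given without a test.

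**Figure D1:**
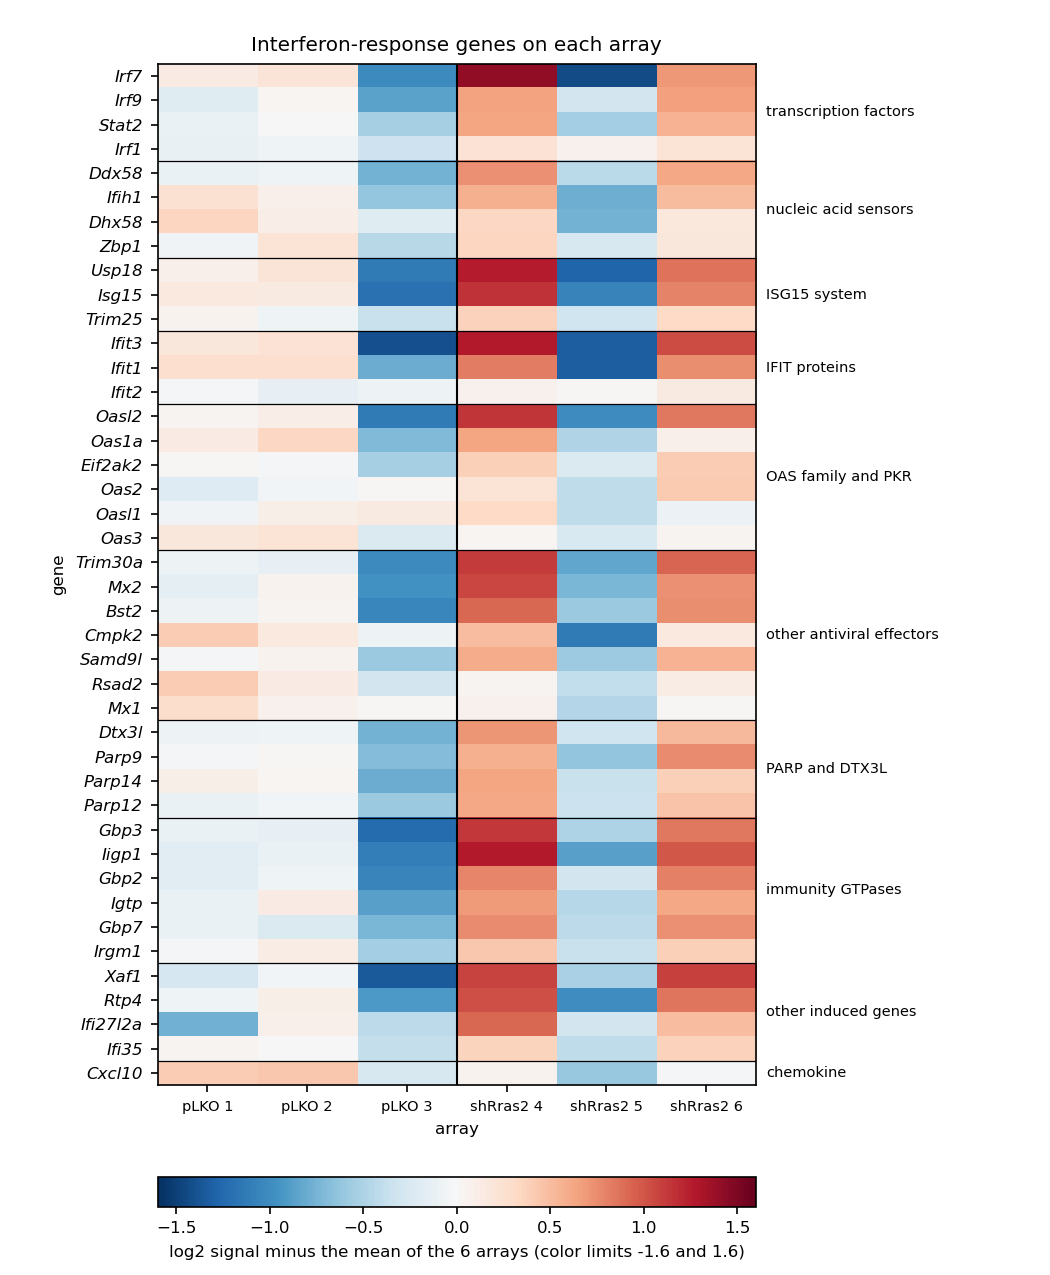
Log2 RMA signal of each of the 42 interferon-response genes minus its mean over the 6 arrays, with arrays as columns and genes as rows grouped by role; red is above and blue below that mean. Control replicate 3 and knockdown replicate 5 are blue for most genes, and knockdown replicates 4 and 6 are red.

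The median gene signal lay between 7.22 and 7.28, the median of the negative-control probe sets between 4.95 and 5.14, and that of the positive controls between 9.42 and 9.47. Both control medians were highest on control replicate 3 (5.05 and 9.47) and knockdown replicate 5 (5.14 and 9.45). Knockdown replicate 4, where the genes were high, had nearly the same negative-control median as control replicate 3 (5.05). Neither the upper tail of the negative controls nor the hybridization controls set both arrays apart. The 95th percentile of the negative controls was 7.90 on control replicate 3, 7.97 on knockdown replicate 5 and 7.95 on knockdown replicate 4. The mean of the hybridization controls was highest on knockdown replicate 4 (11.12). Limma's array weights, which fall as an array departs from its group over all genes, did set them apart. They were lowest for control replicate 3 and knockdown replicate 5 (0.832 and 0.652, against 0.945 to 1.58). Rras2, the targeted gene, was 10.67, 10.75 and 10.82 on control replicates 1 to 3 and 9.09, 9.69 and 9.21 on knockdown replicates 4 to 6. The log2 difference of Rras2, knockdown minus control, was -1.41 ± 0.14 (SE; adjusted p = 0.00163 in limma; exact permutation p = 0.1, the smallest possible for 3 against 3). Replicate 5 thus kept the most Rras2 of the knockdown arrays, at 48.1% of the control mean against 31.8% and 34.6%, while control replicate 3 had the highest Rras2 signal of all 6. The part of array quality or Rras2 level in the pattern was not tested.

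The labelled cell type was checked against its markers, and other cell types were looked for. Signals were set against a detection level of log2 7.92, below which 95% of the signals of the negative-control probe sets lay. Of 12 measured fibroblast markers, 7 had a mean above this level. The summed linear signal of all 12 was 31500 to 32100 in the controls and 34700 to 35400 in the knockdown. None of 10 macrophage and monocyte, 9 lymphocyte, 7 dendritic cell, 5 endothelial and 6 epithelial markers had a mean above it. The summed signal of the macrophage markers was 718, 733 and 788 in the controls and 684, 755 and 699 in the knockdown. With all of these markers below the detection level, that sum is mostly background. Single markers of that list did not move alike. Ly6c2, a monocyte marker, was 5.86, 5.93 and 5.69 and then 6.55, 6.13 and 6.37, the lowest of each group on replicates 3 and 5. Cd14 went the other way, at 7.70, 7.73 and 7.92 and then 6.89, 7.43 and 7.32, the highest of each group on replicates 3 and 5. Skeletal muscle markers, of which 3 of 7 lay above the detection level, summed to 690, 813 and 843 in the controls and 6110, 3480 and 5530 in the knockdown. In this sum replicate 5 again stood below replicates 4 and 6, while control replicate 3 did not stand below the other controls. Myog (7.05, 7.06 and 6.70) and Myod1 (6.64, 6.31 and 6.00), both below the detection level, were lowest of the controls on replicate 3. Myh3, Myl1, Acta1, Ckm and Des were not. In these bulk samples a smaller share of expressing cells and less RNA per cell cannot be told apart.

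Between the groups, 0 of the 42 genes passed the threshold of 0.05 on limma's adjusted p, against 5.21% of all genes (2.99% higher and 2.22% lower in the knockdown). An unadjusted limma p under 0.05 was reached by 7 of the 42, all higher, against 19.1% of all genes in either direction and 9.11% higher. With eBayes in its trend and robust setting, 1 of 42 (Irf1) passed, against 9.78% of all genes (4.95% higher and 4.83% lower). The log2 difference, knockdown minus control, was above 0 for 35 of 42 (83.3%, against 46.8% of all genes) and had a median of 0.45, against -0.01 for all genes. Only Irf1 and Ifit2 had groups that did not overlap, both higher in the knockdown, 2 of 42 (4.76%) against 25.5% of all genes (11.6% higher and 13.9% lower). The lowest adjusted p was 0.0873, that of Irf1.

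The wide spread within groups was measured directly. The SD between arrays of a group, pooled over both groups, had a median of 0.53 for the 42 genes and 0.12 for all genes. Among the 8131 genes whose mean lay above the detection level, 26 were interferon-response genes of this list, and 11 of the 20 genes with the largest within-group SD were among these 26. Of the 100 largest, 24 were. Ifit3 (1.21), Irf7 (1.15) and Usp18 (1.10) ranked 2 to 4 of the 8131. The other 16 genes of the list had means at or below it, among them Isg15, Mx1, Mx2, Rsad2 and Oas1a, where log2 differences are compressed.

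**Figure D2:**
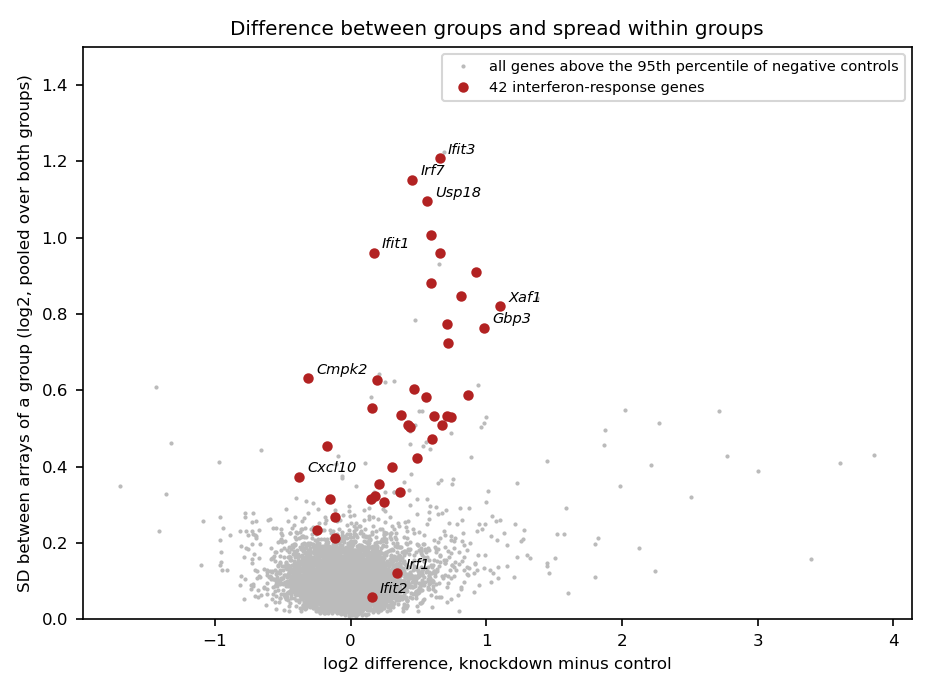
Log2 difference between the groups (horizontal axis) against the SD between arrays of a group (vertical axis, log2), for all genes above the detection level of log2 7.92 (grey) and for the 42 interferon-response genes (red). Most red points lie high, up to 1.21 for Ifit3, at differences between -0.38 and 1.10, while Irf1 and Ifit2 lie low.

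The transcription factors of the pathway differed among themselves, from Irf7, which spread the most over the arrays, to Irf1, which spread little. Irf7, the factor that amplifies interferon production, was 9.36, 9.43 and 8.20 on the control arrays and 10.64, 7.80 and 9.92 on the knockdown arrays. It had the widest range of the list, 2.84 on the log2 scale between knockdown replicates 4 and 5, of which the latter lay below the detection level, and the control arrays lay between the highest and lowest knockdown arrays. The group difference of 0.46 ± 0.64 was smaller than its SE (adjusted p = 0.767 in limma). Irf9, the DNA-binding partner of STAT2, was 8.83, 9.05 and 8.16 in the controls and 9.66, 8.72 and 9.67 in the knockdown. Stat2 was 9.61, 9.73 and 9.18 and then 10.35, 9.17 and 10.27. For both genes replicates 4 and 6 lay above all controls and replicate 5 below control replicates 1 and 2. Irf1, a factor strongly induced by type II interferon, was 9.26, 9.31 and 9.04 in the controls and 9.61, 9.44 and 9.59 in the knockdown. Its knockdown arrays all lay above the controls and stayed within 0.17 of each other, and its difference was 0.34 ± 0.10.

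The cytosolic sensors recognise viral nucleic acid. Ddx58, which encodes the RNA sensor RIG-I, was 9.43, 9.46 and 8.77 in the controls and 10.26, 9.10 and 10.15 in the knockdown (difference 0.61 ± 0.30, adjusted p = 0.313 in limma). Ifih1, the sensor MDA5, was 9.61, 9.45 and 8.75 and then 9.93, 8.59 and 9.87, with the lowest value on replicate 5. Dhx58, the regulatory relative LGP2, and Zbp1, a sensor of Z-form nucleic acid, lay below the detection level, with differences of -0.17 ± 0.26 and 0.18 ± 0.19.

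ISG15 is a ubiquitin-like protein that is attached to other proteins, and USP18 removes it and dampens the interferon receptor. Isg15 was 7.71, 7.69 and 6.35 in the controls and 8.70, 6.48 and 8.34 in the knockdown, a range of 2.36 on the log2 scale. Its mean lay below the detection level, so this range is compressed and no fold is given. Usp18 was 9.12, 9.24 and 7.90 and then 10.29, 7.75 and 9.90. In both genes replicates 3 and 5 were more than 1 log2 unit below the other arrays of their group. The group differences, 0.59 ± 0.56 and 0.56 ± 0.61, were close to their own SE (limma adjusted p = 0.630 and 0.686). Trim25, a ubiquitin ligase that acts on RIG-I, followed the same order over a narrower range of 0.72.

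**Figure D3:**
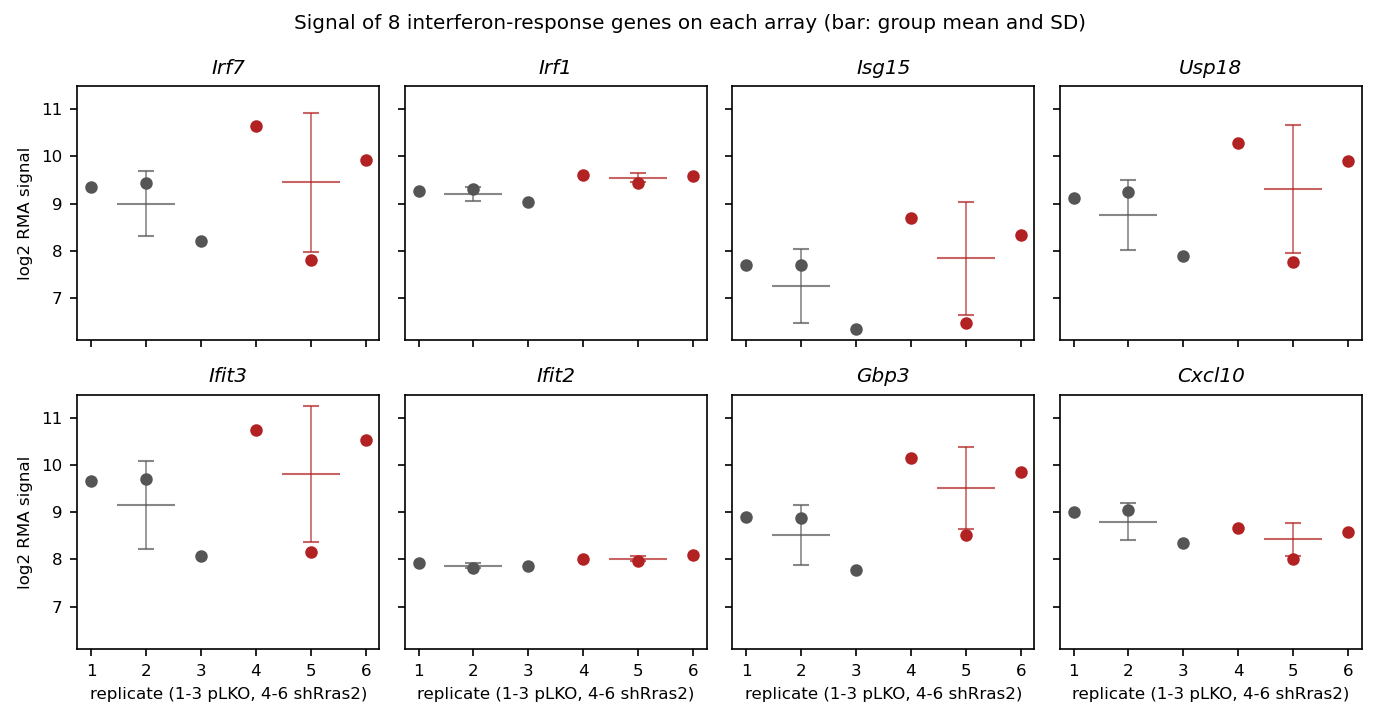
Log2 RMA signal (vertical axis) of 8 interferon-response genes on each array (replicates 1 to 3 pLKO in grey, 4 to 6 shRras2 in red), with bars for the group mean and SD of 3 arrays. Irf7, Isg15, Usp18, Ifit3 and Gbp3 are low on replicates 3 and 5, Irf1 and Ifit2 span at most 0.57, and Cxcl10 is not raised on replicates 4 and 6.

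The IFIT proteins bind foreign RNA, and their genes differed from each other. Ifit3 was 9.67, 9.71 and 8.08 in the controls and 10.75, 8.16 and 10.52 in the knockdown, a 6.37-fold span. Ifit1 was 8.90, 8.89 and 7.84 and then 9.45, 7.31 and 9.38, so that its group means, 8.54 ± 0.61 and 8.71 ± 1.21 (SD, n = 3 each), differed by less than either SD. Ifit2, in contrast, was 7.92, 7.81 and 7.86 and then 8.01, 7.97 and 8.09, a span of 1.21-fold over all 6 arrays, the narrowest of the list, close to the detection level.

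Among the OAS family, whose enzymes make the messenger that activates an RNA-cleaving enzyme, only Oasl2 lay well above the negative controls. It was 10.26, 10.32 and 9.09 in the controls and 11.37, 9.21 and 11.07 in the knockdown (difference 0.66 ± 0.53). Oas1a, Oas2, Oas3 and Oasl1 lay below the detection level, with differences between -0.12 and 0.16, and the probe sets of this multigene family may share signal. Eif2ak2, the kinase PKR that halts translation on sensing double-stranded RNA, was 10.52, 10.47 and 9.97 and then 10.88, 10.27 and 10.90.

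Of the other antiviral effectors, Bst2, which tethers budding virus at the cell surface, was 10.75, 10.88 and 9.79 in the controls and 11.76, 10.23 and 11.58 in the knockdown (difference 0.72 ± 0.40). Mx2, an antiviral dynamin-like GTPase, Trim30a and Samd9l were also lowest on replicates 3 and 5 and highest on 4 and 6, with ranges of 2.03, 2.14 and 1.19. Cmpk2 and Rsad2 are neighbouring genes of a nucleotide kinase and of viperin, and both had differences below 0. Cmpk2 was 7.83, 7.58 and 7.34 in the controls and 7.93, 6.30 and 7.59 in the knockdown, so that replicate 5 alone stood far from the rest. Rsad2 was 7.54, 7.26 and 6.83 and then 7.18, 6.74 and 7.25, with replicates 4 and 6 inside the range of the controls. Mx1 was at background (4.68 ± 0.14 and 4.43 ± 0.30, SD, n = 3 each).

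The ADP-ribosyltransferase genes Parp9, Parp12 and Parp14 and the ubiquitin ligase gene Dtx3l, whose protein binds PARP9, formed an even group, with ranges of 1.21 to 1.46 and differences of 0.44 to 0.60. Dtx3l was 8.79, 8.81 and 8.12 in the controls and 9.58, 8.56 and 9.39 in the knockdown. The immunity GTPases, which act on pathogen vacuoles and are known for strong induction by type II interferon, had the highest median difference of the roles with more than 1 gene, 0.79, with a lowest adjusted p of 0.191. Gbp2 was 8.60, 8.71 and 7.73 in the controls and 9.56, 8.48 and 9.59 in the knockdown (difference 0.86 ± 0.33). Gbp3 was 8.91, 8.88 and 7.78 and then 10.15, 8.52 and 9.85 (0.99 ± 0.43). In both, replicate 5 lay above control replicate 3 and below control replicates 1 and 2. Gbp7, Iigp1, Igtp and Irgm1 had differences of 0.71, 0.93, 0.56 and 0.31. Irgm1 was 10.92, 11.07 and 10.41 and then 11.39, 10.59 and 11.33, a narrower span of 1.97-fold.

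Xaf1, whose product antagonises the apoptosis inhibitor XIAP, had the largest difference of the list. It was 8.78, 9.00 and 7.70 in the controls and 10.13, 8.52 and 10.14 in the knockdown (difference 1.10 ± 0.46, limma adjusted p = 0.231). Rtp4, Ifi35 and Ifi27l2a had differences of 0.59, 0.21 and 0.74. The chemokine gene Cxcl10, which attracts T cells, had the largest difference below 0. It was 9.01, 9.04 and 8.35 in the controls and 8.67, 8.01 and 8.59 in the knockdown (-0.38 ± 0.22, adjusted p = 0.396 in limma). Replicates 3 and 5 were again the lowest of their groups, but replicates 4 and 6 did not lie above control replicates 1 and 2.

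How alike the genes were was expressed as Pearson's r of each gene with the mean profile of the other genes of the list above the detection level. These values rest on 6 arrays in 2 groups that share their normalization and are given as a description. It was at least 0.9 for 30 of 42 genes, against 1.26% of all genes, and at least 0.95 for 27. It was below 0.7 for 7 genes, namely Ifit2, Oas3, Oasl1, Mx1, Rsad2, Cmpk2 and Cxcl10. Of these, Oas3, Oasl1, Mx1, Rsad2 and Cmpk2 lay below the detection level. The mean r over all pairs of the 42 genes was 0.78, and 0.88 when each array's deviation from its own group mean was used, which removes any difference between the groups. Over all 19505 genes these means were 0.003 and 0.002. Genes with the core of the response element in their promoter window had a median range of 1.49 (n = 18), and those with a window but no match 1.21 (n = 13), with overlapping ranges of 0.47 to 2.67 and 0.27 to 2.84.

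The result of the group comparison depended on knockdown replicate 5. Without it, 15 of the 42 genes passed limma's threshold (35.7%, against 5.82% of all genes), all of them higher in the knockdown (3.51% of all genes) and 0 lower (2.32%). They were Ddx58, Stat2, Irf9, Mx2, Rtp4, Xaf1, Parp9, Parp12, Dtx3l, Gbp2, Gbp3, Gbp7, Iigp1, Trim30a and Ifi27l2a, with differences of 0.78 to 1.64 and adjusted p between 0.0131 and 0.0493. Since that array was the lowest of its group for every gene, its removal both raised the differences and narrowed the spread. The array stood apart by these genes' own levels, so these adjusted p-values describe the dependence on it and do not test the knockdown. Without control replicate 3, 0 of 42 passed (lowest adjusted p = 0.165, against 2.19% of all genes called, 1.54% higher and 0.646% lower), and the median difference was 0.18. With both arrays left out, which were picked by these genes' own levels so that no test is given, the median difference was 0.62 and 38 of 42 genes were higher in the knockdown, against 48.2% of all genes. The exceptions were Oas3, Mx1, Rsad2 and Cxcl10. Replicate 5 minus control replicate 3 gave a median of 0.12, with 27 of 42 above 0, against 46.4% of all genes.

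The lists of ligands and receptors and of further transducers held no gene with an r of at least 0.9 with the profile, although Stat2, Irf9, Ddx58 and Ifih1 above reached it. Jak2 and Tyk2 on the transducer list ran the other way, with r of -0.94 and -0.79 over narrow ranges of 0.34 and 0.46. Both were highest of each group on replicates 3 and 5. Ifnb1, the type I interferon of fibroblasts, was at background, at 6.18, 6.14 and 6.12 in the controls and 5.77, 6.05 and 6.28 in the knockdown. Of 16 measured ligands and receptors, 5 had a mean above the detection level. The median deviation of these 5 was -0.10, -0.15 and -0.14 in the controls and 0.17, 0.08 and 0.07 in the knockdown. An unadjusted limma p under 0.05 was reached by 4 of the 16 (19.1% of all genes, 9.11% higher). They were Ifnar1, Ifnar2, Ifngr2 and Il10rb, all higher in the knockdown. Of the 16, 1 passed limma's threshold, a share near the 5.21% of all genes. It was Ifnar2, a subunit of the type I receptor. Ifnar2 was 10.00, 10.01 and 9.99 in the controls and 10.39, 10.24 and 10.33 in the knockdown (0.32 ± 0.08, limma adjusted p = 0.0467). Replicates 3 and 5 were the lowest of their groups, but the controls were nearly equal (SD 0.013). Its r with the profile was 0.64. With each array left out in turn, Ifnar2 passed in 1 of 6 fits, and its adjusted p reached 0.151. Ifnar1, Ifngr1, Ifngr2 and Il10rb had differences of 0.18 ± 0.08, -0.12 ± 0.08, 0.31 ± 0.09 and 0.26 ± 0.08 and did not pass. Of 15 transducers and regulators 0 passed limma's threshold (5.21% of all genes), and 2 had an unadjusted p under 0.05 (19.1% of all genes). Isg20, an exonuclease gene on that list, was 9.59, 9.59 and 9.05 and then 9.67, 8.86 and 9.52, low on replicates 3 and 5, with an r of 0.84. Jak1 and Tyk2 differed by -0.07 ± 0.09 and -0.17 ± 0.11, Irf3 by -0.16 ± 0.13, and Socs1, a feedback inhibitor of JAK kinases, by -0.39 ± 0.10 (adjusted p = 0.0599).

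Of 13 nucleic acid sensing genes, 1 rose and 1 fell, against 2.99% and 2.22% of all genes. Sting1, the adaptor of cytosolic DNA sensing, was 9.28, 9.27 and 9.29 in the controls and 8.78, 8.81 and 8.87 in the knockdown. It fell by 0.46 (SE 0.07, limma adjusted p = 0.0104), passed in 6 of the 6 fits without 1 array, and was not low on replicates 3 and 5. Samhd1, which depletes deoxynucleotides, rose by 0.45 ± 0.11 (adjusted p = 0.0462) and passed in 1 of those fits. Mavs, the adaptor of RIG-I, differed by -0.07 ± 0.08. Tlr3, the endosomal receptor for double-stranded RNA, did share the array pattern, at 8.81, 8.67 and 8.18 and then 9.37, 8.29 and 9.33, as did the RNA-editing enzyme gene Adar.

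Further interferon-induced genes outside the list showed the pattern in part. Of 57 measured, 3 rose and 0 fell, against 2.99% and 2.22% of all genes. The 3 calls in all are a share near the 5.21% of all genes called. In the same list 24 had an r of at least 0.9 with the profile, against 1.26% of all genes. Parp10 was 9.19, 8.88 and 8.58 in the controls and 10.11, 9.48 and 10.10 in the knockdown, and it rose by 1.01 ± 0.20 (limma adjusted p = 0.0227). Parp11 and Ogfr rose by 0.55 and 0.40. With each array left out in turn, Parp10 and Parp11 each passed in 2 of 6 fits and Ogfr in 1, with adjusted p reaching 0.097, 0.130 and 0.151. Of 15 genes of MHC class I and the immunoproteasome, which present peptides to T cells, 0 passed limma's threshold (5.21% of all genes). In the same list 8 had an unadjusted p under 0.05 (19.1% of all genes) and 11 had an r of at least 0.9 (1.26%). Psmb8, an immunoproteasome subunit, was 7.81, 7.94 and 7.32 and then 9.12, 7.70 and 9.06, and B2m differed by 0.27 ± 0.08 (adjusted p = 0.102).

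**Figure D4:**
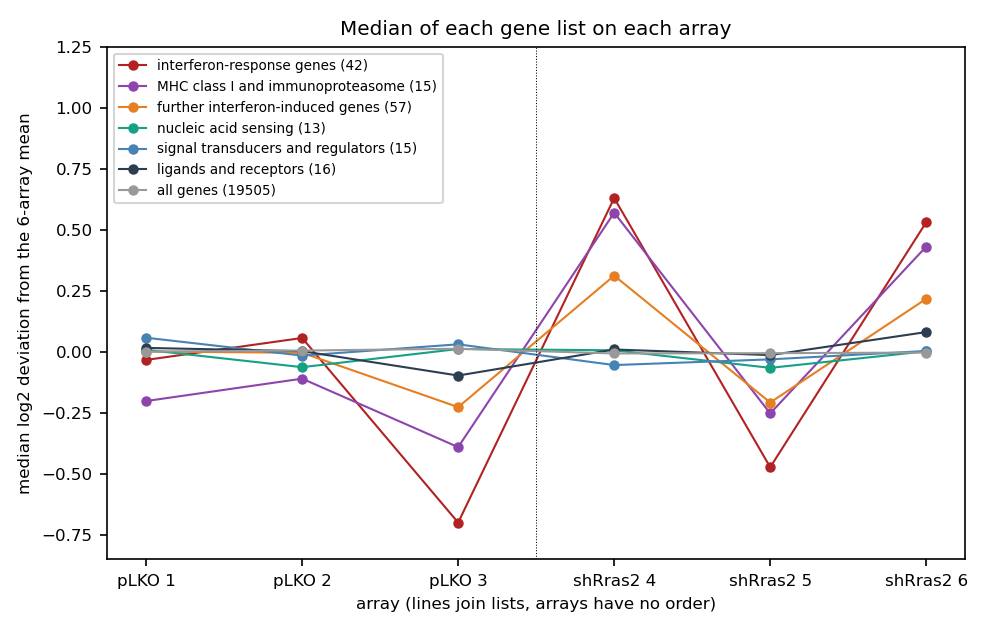
Median log2 deviation from the 6-array mean (vertical axis) on each array for the 42 interferon-response genes, 5 other lists of the pathway and all genes, with the number of genes in brackets. The interferon-response, MHC class I and further induced lists dip on control replicate 3 (-0.70, -0.39 and -0.23) and on knockdown replicate 5 (-0.47, -0.25 and -0.21), while the other lists stay within 0.10 of 0. Of the 16 ligands and receptors, only 5 had a mean above the detection level.

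The genes most like the list were sought among the 1406 other genes above the detection level whose range over the 6 arrays was at least 0.5. By r with the mean profile the first 10 named genes were Irgm2, Apol9a, Mitd1, Tlr3, Ifit3b, Psmb10, Lgals3bp, Ube2l6, Casp12 and Adar, with r from 0.975 to 0.995. Irgm2 was 8.16, 8.36 and 7.11 in the controls and 9.34, 7.23 and 9.01 in the knockdown. Lgals3bp spanned 2.47-fold over the arrays. Ifit3b is a close paralog of Ifit3, and the probe sets may share signal. Of the 50 genes with the highest r, 25 were on the other pathway lists, which made up 2.70% of the 1406.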

How the data were processed

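Expression was measured on 6 Affymetrix arrays. The authors deposited log2 signals. They come from RMA, a method of background correction, quantile normalization and probe summary, run under R 3.6.3 as the processing notes of the submitters name it. The RMA package's version and filters were not given in the sources used here. Of 29129 probe sets, 19572 had 1 gene symbol, 0 several, and 2634 transcript probe sets none. All 19572 Entrez identifiers matched the RefSeq table of GRCm38.p6. Where a gene had more than 1 probe set (55 genes), the brightest was kept, leaving 19505 genes.

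Knockdown and control were compared with limma 3.58.1 in R 4.3.3 (lmFit, eBayes) without covariates. Its two-sided p-values were adjusted by Benjamini-Hochberg across the 19505 genes. Errors of differences are SEs, and errors of levels are SDs over 3 arrays. The members and lists were chosen with earlier results of these data known. The text names every member by role, listed pathway genes past the threshold, a few receptors and transducers whatever their values, and the 10 genes most like the list. The number of arrays limits the precision. No scan dates were used, and a batch that followed the groups and the knockdown cannot be told apart. The fit, the covariation measure and the motif search were tested on simulated data. Alternatives were other normalizations, filters, probe set rules, variance models, and leaving out each array.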

Additional observations from a re-analysis of the deposited data

How the results depend on the processing

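The count of interferon-response genes past limma's threshold was 0 higher and 0 lower, and it stayed there after cyclic loess, after quantile normalizing again, with arrays centred on their medians, without the 30% dimmest genes, with the mean of a gene's probe sets, with every transcript probe set and with array weights. It was 1 higher with eBayes in its trend and robust setting, and it ranged from 0 to 15 higher, and 0 to 0 lower, without 1 array. The median difference was 0.18 to 0.84 without 1 array. Leaving out both control replicate 3 and knockdown replicate 5 was chosen after seeing the data. Rras2 fell in each of these fits, by 1.29 to 1.59 without 1 array. No normalization turned the sign of any of the 42 genes, but leaving out an array did for some that did not pass. Over the fits without 1 array, the log2 difference ran from -0.20 to 0.87 for Ifit1, from -0.065 to 0.63 for Ifih1, from -0.14 to 1.28 for Irf7, from -0.15 to 0.44 for Oas1a and from -0.019 to 0.39 for Oas2. It ran from -0.38 to 0.16 for Dhx58, from -0.305 to 0.058 for Oasl1, from -0.34 to 0.0082 for Rsad2 and from -0.64 to 0.17 for Cmpk2. The cause was not tested beyond the removal of the array itself. All genes past the threshold numbered 1017, 392 to 1136 without 1 array and 1908 with the trend and robust setting. No paired analysis was possible because the replicate numbers of the groups, 1 to 3 and 4 to 6, are not shared. Dim probe sets limit what can be said of the 16 genes at or below the detection level.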
